A study of Mus musculus with 20 samples.

Results

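The genes followed in mouse liver were 9 of the regulator of G-protein signaling (RGS) family, namely Rgs16, Rgs9, Rgs2, Rgs3, Rgs5, Rgs10, Rgs12, Rgs14 and Rgs19. They were found by gene symbol among the 56884 genes of the authors' male RNA-seq table and the 18149 genes of the female table, and all 9 were listed in both. How the 9 were chosen is not stated in the sources used here. Rgs16 and Rgs9 are taken as chosen by their fold changes and adjusted p-values in the authors' WT against Midn-T comparison of these samples. The other 7 are taken as chosen by family with those results known. The fold changes and p-values are the authors' own results and were not used here, so the effect of the trapped allele on these genes is not described. What is described is how much of each RGS transcript the livers held, in males and in females, and how the members resemble each other in sequence.

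RNA was taken from livers of mice aged 11 to 14 weeks, from 3 WT and 3 Midn-T animals of each sex. Midn encodes midnolin, a protein that takes nuclear proteins to the proteasome for degradation. The XTR cassette is an invertible gene trap in the Midn gene, and the labels give the WT libraries the genotype Midn XTR and the Midn-T libraries the genotype Midn TR, in which the trap has been switched on. The switch was driven by Cre recombinase under the albumin promoter, which is active in hepatocytes, and whether the WT animals carried Cre is not given in the sources used here. Each deposited value is the authors' mean normalized count over the 6 samples of 1 sex, WT and Midn-T pooled. No value of a single sample was used, so no mean has an error here, no test between groups could be made, and every difference below is a description.

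RGS proteins end G-protein signals. A hormone receptor of the G-protein coupled class loads GTP onto a G-protein alpha subunit, and the RGS domain binds the active alpha subunit and speeds up its GTP hydrolysis, which returns it to the resting state. The R4 subfamily (Rgs16, Rgs2, Rgs3 and Rgs5 here) is built of little more than the RGS domain in most of its members, the R12 subfamily (Rgs10, Rgs12 and Rgs14) acts on the Gi class and in Rgs12 and Rgs14 adds further domains, the RZ subfamily is represented by Rgs19, and the R7 subfamily by Rgs9, which works in a complex with Gnb5 and is best known from photoreceptors and striatal neurons. In liver, Rgs16 is known as a hepatocyte gene with a daily rhythm and a response to feeding, while Rgs5 is known as a marker of pericytes.

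The RGS domain is what joins the 9 genes, and a stretch of 51 coding bases (17 codons) inside it shows how close they are. It was picked after the sequences were compared, since it covers the run of 23 bases that Rgs16 shares with Rgs3 and all but the last base of the run of 24 that it shares with Rgs8. In Rgs16 it lies on the plus strand of GRCm39 at chr1:153617747-153617797, within 1 exon, and codes for residues 86 to 102. The counterpart in each other gene is the ungapped stretch of highest BLOSUM62 score. Capitals mark the bases that equal those of Rgs16, and Rgs8, the neighbor of Rgs16 on the chromosome, is shown for comparison. All sequences are read 5′ to 3′ from the coding strand of the GENCODE transcripts.
Rgs16: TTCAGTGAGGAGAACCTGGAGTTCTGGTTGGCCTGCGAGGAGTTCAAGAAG
Rgs8: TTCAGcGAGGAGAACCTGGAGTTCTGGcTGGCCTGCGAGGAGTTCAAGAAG
Rgs3: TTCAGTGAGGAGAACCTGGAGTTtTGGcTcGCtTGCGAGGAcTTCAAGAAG
Rgs5: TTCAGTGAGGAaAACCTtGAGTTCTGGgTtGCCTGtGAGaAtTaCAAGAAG
Rgs2: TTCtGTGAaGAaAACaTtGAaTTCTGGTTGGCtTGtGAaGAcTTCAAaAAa
Rgs10: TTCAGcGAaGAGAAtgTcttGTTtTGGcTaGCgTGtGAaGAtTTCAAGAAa
Rgs9: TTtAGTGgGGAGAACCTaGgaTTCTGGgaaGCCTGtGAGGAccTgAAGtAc
Rgs19: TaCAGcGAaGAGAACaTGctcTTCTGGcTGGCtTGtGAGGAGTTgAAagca
Rgs12: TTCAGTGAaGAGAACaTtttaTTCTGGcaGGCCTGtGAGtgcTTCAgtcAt
Rgs14: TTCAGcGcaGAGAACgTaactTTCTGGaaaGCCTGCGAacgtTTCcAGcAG

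Within these 51 bases, Rgs8 equalled Rgs16 at 49 positions and Rgs3 at 46. Rgs5 equalled it at 43, Rgs2 at 39, Rgs9 at 37, Rgs10 and Rgs19 at 36 each, Rgs12 at 35 and Rgs14 at 34. Read as protein, the stretch kept all 17 residues of Rgs16 in Rgs8, 16 in Rgs3, 14 each in Rgs5, Rgs2 and Rgs10, 12 in Rgs19, 11 each in Rgs9 and Rgs12 and 10 in Rgs14. Among the members, the R4 genes were thus the nearest to Rgs16 by bases, while by residues Rgs10, of the R12 subfamily, equalled Rgs5 and Rgs2. In Rgs9 the stretch is interrupted by an intron and spans chr11:109131720-109137285 on the minus strand.

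The proteins of the members, translated from the longest complete coding transcript of each gene, ran from 201 residues in Rgs16 to 1451 in Rgs12. Rgs5 held 202 residues, Rgs10 204, Rgs2 211, Rgs19 243, Rgs14 575, Rgs9 675 and Rgs3 966. In global alignments, the 9 pairs within a subfamily had identities from 41.2% to 51.1% of the aligned residues (median 46.6%), and the 27 pairs across subfamilies from 26.0% to 41.7% (median 34.5%). Gaps at the ends were free and only aligned residues were counted, so these are not identities over the full length. Rgs16 and Rgs3, for example, had 185 aligned residues of the 966 in Rgs3. The closest pair was Rgs16 and Rgs5, with 51.1%, and the most distant was Rgs3 and Rgs9, with 26.0%. The pairs are not independent, since each gene enters 8 of them.

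**Figure D1:**
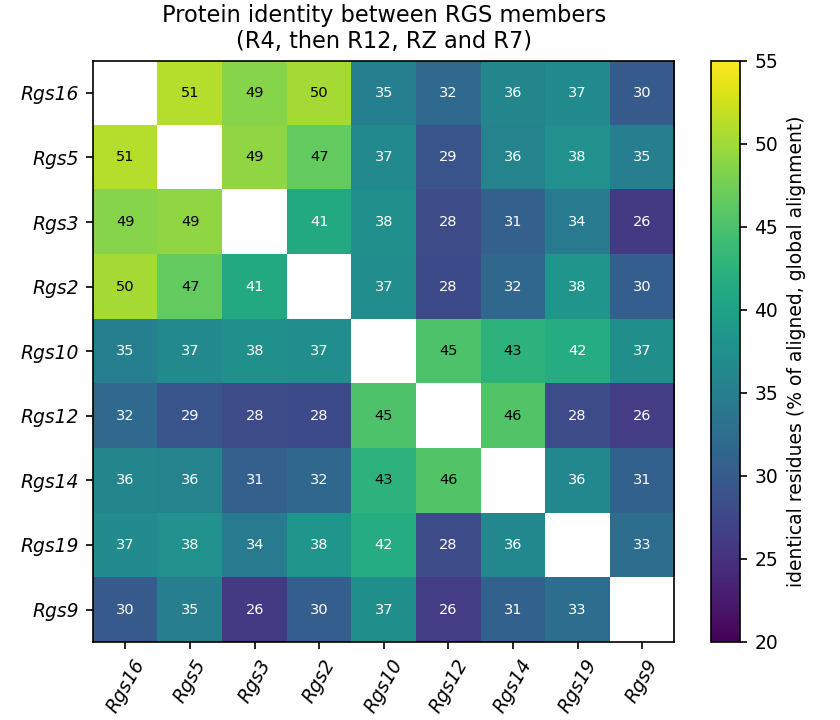
Identity between the 9 RGS proteins, as the percentage of aligned residues that are the same in a global alignment, on a color scale from dark (low) to yellow (high). The 4 R4 proteins at the upper left share 41.2% to 51.1% with each other, and Rgs9 in the last row stays between 26.0% and 37.4%.

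Shared sequence matters for the counts where it reaches the length of a sequenced read, which was 150 bases here. The longest run of coding bases that any member shared with another RGS gene was 24, between Rgs16 and Rgs8, followed by 23 between Rgs16 and Rgs3, between Rgs2 and Rgs1 and between Rgs5 and Rgs1. With untranslated parts included, the longest run was 41 bases, between Rgs14 and Rgs20. Every 31-base word in the exons of Rgs16, Rgs2, Rgs12 and Rgs19 occurred once in the genome. The share of such words that occurred once was 99.95% in Rgs10, 99.46% in Rgs5, 96.07% in Rgs9 and 94.49% in Rgs14, the remainder being repeated up to 30823 times in Rgs9 and 1145829 times in Rgs14. Rgs3 stood apart with 76.62%. Of its 9783 exonic words, 1997 had their only other copy in a span of 2568 bases on chromosome X (141413728 to 141416295) that holds Gm5763, annotated as a processed pseudogene. Since the authors kept only uniquely mapped reads, reads from these exons of Rgs3 may not have been counted. Gm5763 itself had an authors' mean of 0.45 in males and was not listed in the female table. Whether this affected the value of Rgs3 was not tested.

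Rgs16 was by a wide margin the most abundant member in both sexes. The gene (ENSMUSG00000026475) is protein coding and lies on chromosome 1 from 153616091 to 153621228. Its authors' mean normalized count was 4363 in males and 9766 in females. To compare genes, each mean was divided by the sum over the 18132 genes listed in both tables, expressed as parts per 1000000 and divided by the length of the gene's exons in kb, a level per length. On this scale Rgs16 stood at 61.2 in males and 135 in females. Of its exonic bases, 18.67% are overlapped on the opposite strand by the noncoding Gm28513, whose means were 5.70 and 11.1. Rgs16 was higher than 97.57% of the 18028 genes listed in both tables with a known exon length in males and than 98.82% in females. Genes left out of the female table, which holds none below a mean of 6.61, do not enter these ranks or the medians below. Among the 9 members Rgs16 held 82.50% of the summed level per length in males and 88.62% in females. These shares depend on the length used. The exons of Rgs16 cover 2357 bases and its coding transcripts average 2355.5, against 6148 and 3601.6 for Rgs5 and 10860 and 2799.2 for Rgs3. With transcript lengths the share of Rgs16 would be smaller, and it was not recomputed.

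Rgs5 (ENSMUSG00000026678, chromosome 1, 169483036 to 169524887) came next. Its authors' mean was 1547 in males and 1980 in females, and its level per length 8.32 and 10.5. The step from Rgs16 down to Rgs5 was 7.36-fold in males and 12.9-fold in females, and that from Rgs5 to Rgs3, the next gene, 7.78-fold and 5.41-fold. Rgs16 and Rgs5 together held 93.71% of the members' summed level in males and 95.51% in females. On this scale the remaining 7 genes shared a small part of that level. With mean coding transcript lengths their part would be larger, and it was not recomputed. None of the 7 reached the median gene in males, where that median was 1.65. In females, where it was 1.73, Rgs3 alone passed it. This place of Rgs3 depended on the scale. Without division by length it stood above 57.72% of genes in males and 68.23% in females, where Rgs12 also passed the median with 55.91%, and among protein-coding genes alone it stood above 45.31% in females.

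The other R4 genes lay near the median. Rgs3 (ENSMUSG00000059810, chromosome 4, 62478084 to 62622238) had authors' means of 351 in males and 646 in females and levels per length of 1.07 and 1.93. Rgs2 (ENSMUSG00000026360, chromosome 1, 143875076 to 143879899), which acts preferentially on the Gq class, had means of 117 and 150 and levels of 1.06 and 1.35. In males Rgs3 and Rgs2 differed by 1.01-fold per length, and no spread is at hand to tell them apart. Rgs3 and Rgs2 ranked above 41.01% and 40.88% of genes in males, and above 52.68% and 44.44% in females.

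Rgs9 (ENSMUSG00000020599, chromosome 11, 109116158 to 109189025) lay below the median gene in level per length in both sexes. Its authors' mean was 121 in males and 202 in females, and its level per length was 0.61 and 1.00, above 31.13% and 38.30% of genes. This place depended on the length used. By the mean alone Rgs9 was higher than Rgs2, which had 117 in males and 150 in females. The exons of Rgs9 cover 6532 bases, while its coding transcripts average 2281.8. Of the partners of Rgs9, Gnb5 had authors' means of 17.6 in males and 21.4 in females, and Rgs7bp of 46.9 and 65.7. Rgs9bp, which anchors Rgs9 in photoreceptors, had a mean of 4.74 in males and was not listed in females, whose table holds no gene below 6.61. The R7 relatives Rgs6, Rgs7 and Rgs11 had means of 3.61, 10.5 and 4.34 in males, so that Rgs9 was the R7 gene of highest mean there.

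Of the R12 genes, Rgs12 lay just above Rgs9, and Rgs10 and Rgs14 were, with Rgs19 of the RZ subfamily, the 3 lowest members. Rgs12 (ENSMUSG00000029101, chromosome 5, 35106715 to 35196988), a large scaffold of the family, had authors' means of 183 in males and 328 in females and levels per length of 0.71 and 1.25. Rgs10 (ENSMUSG00000030844, chromosome 7, 127975345 to 128020482), known from leukocytes and platelets, had means of 39.2 and 42.2 and levels of 0.58 and 0.62. Rgs19 (ENSMUSG00000002458, chromosome 2, 181330212 to 181335997), which binds Gi alpha subunits, had means of 49.7 and 53.4 and levels of 0.58 and 0.61, so that it and Rgs10 differed by 1.01-fold in either sex. Of the exonic bases of Rgs19, 15.81% are overlapped by Tcea2 on the opposite strand, and the counting was by strand. Rgs14 (ENSMUSG00000052087, chromosome 13, 55517258 to 55535857) was the lowest, with means of 15.6 and 17.3 and levels of 0.06 in both sexes, a further 9.83-fold below Rgs19 in males and 9.51-fold in females.

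**Figure D2:**
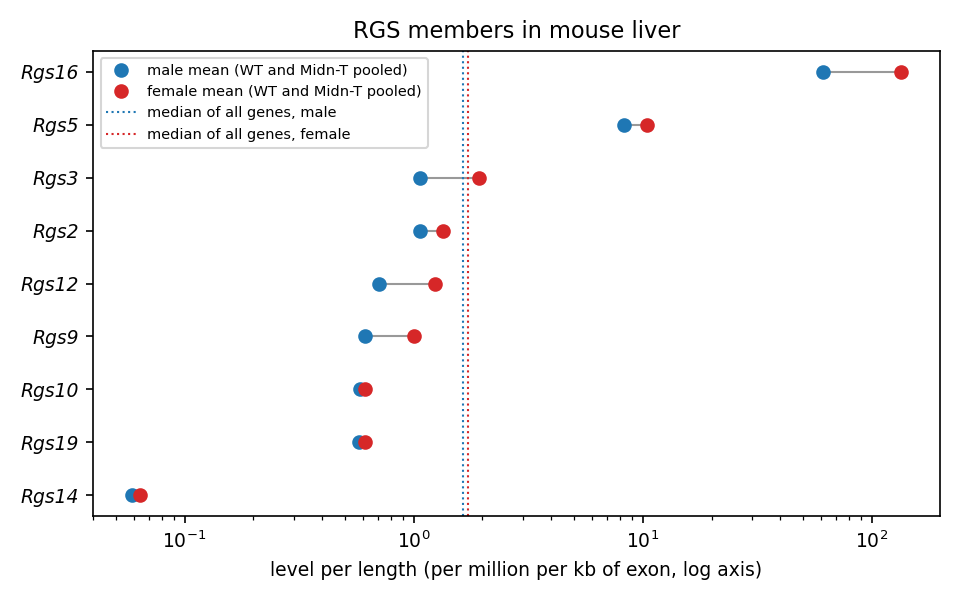
Level per length of each RGS member on a log axis (parts per 1000000 of the summed means, per kb of exon), with 1 point for the mean of the 6 male samples and 1 for the mean of the 6 female samples. Dotted lines stand at the median of the 18028 genes listed in both tables with a known exon length. Each point pools WT and Midn-T and has no error bar, since single samples were not used. Rgs16 and Rgs5 lie far to the right of the medians, and Rgs14 far to the left.

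The order of the members by level per length was the same in both sexes, from Rgs16, Rgs5, Rgs3, Rgs2, Rgs12, Rgs9, Rgs10 and Rgs19 to Rgs14. The neighbors from Rgs3 to Rgs19 were separated by steps of 1.01-fold to 1.504-fold in males and 1.01-fold to 1.63-fold in females, and no spread is at hand to tell such neighbors apart. The steps on either side of Rgs5 and the one above Rgs14 were at least 5.41-fold. Those on either side of Rgs5 would be smaller with coding transcript lengths, and they were not recomputed. With the longest coding transcript in place of all exons, Rgs2 fell from place 4 to place 6 in females, behind Rgs12 and Rgs9, and Rgs12 and Rgs9 exchanged places in males.

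Every member had a higher share of the table in females than in males. The female-to-male ratio was 2.20 for Rgs16, 1.81 for Rgs3, 1.76 for Rgs12 and 1.64 for Rgs9. It was 1.27 for Rgs2, 1.26 for Rgs5, 1.09 for Rgs14 and 1.06 each for Rgs10 and Rgs19. The members thus fell into 4 with a log2 ratio from 0.71 to 1.14 and 5 with one from 0.08 to 0.34. The 3 members of lowest level, Rgs10, Rgs19 and Rgs14, also had the 3 lowest ratios, and Rgs16 was the highest in both, while Rgs5, next in level, had a lower ratio than Rgs3, Rgs12 and Rgs9. R4 held both Rgs16 and Rgs5, and R12 both Rgs12 and Rgs10.

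Over all 18132 genes the median log2 ratio was 0.05, 56.3% of genes were above 0, and 90% of them lay from -0.52 to 0.91. Against this the median of the 9 members was 0.34. Rgs16 alone of the members lay outside that range, above 96.94% of genes, and Rgs3, Rgs12 and Rgs9 lay above 94.30%, 93.80% and 91.89%. The genes compared are not an even background, since the female table holds none below a mean of 6.61. A gene of low male mean enters only if its female mean reached that value, so low ratios of such genes could not be seen. These pooled means do not allow a statement on sex itself. The means of each sex include 3 Midn-T livers, the tables were normalized separately, and a difference between the sexes cannot be told apart from a different response to the trap in males and females. Neither the time of day nor the feeding state at collection is given in the sources used here, and their part in the ratio of Rgs16 was not tested.

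**Figure D3:**
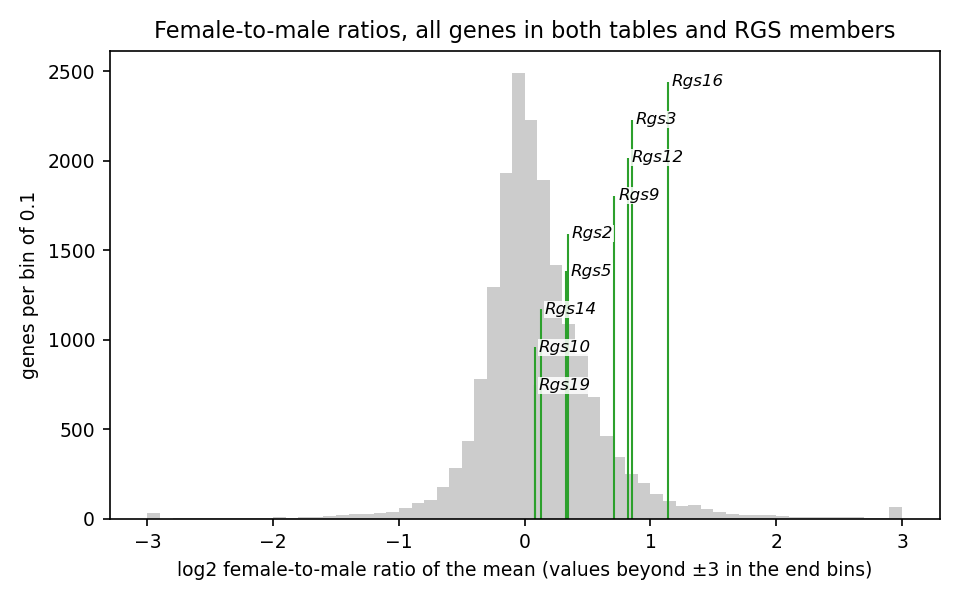
Number of genes (gray bars, bins of 0.1) by log2 female-to-male ratio of the scaled mean, with the 9 RGS members as labelled green lines whose heights carry no meaning. All 9 lines stand to the right of 0, from 0.08 for Rgs19 and Rgs10 to 1.14 for Rgs16.

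Of the 12 other RGS genes, 6 were listed in both tables. By the mean not divided by length, the highest was Rgs1, a gene of lymphocytes, with authors' means of 173 in males and 77.9 in females, a ratio of 0.44 and thus opposite in direction to the members. Rgs4 had means of 49.6 and 71.8 (ratio 1.42). Rgs8, whose gene ends 40021 bases before that of Rgs16 begins, had means of 7.90 and 20.5 and a ratio of 2.56, against 2.20 for Rgs16. The male mean of Rgs8 lay close to the lowest mean of the female table, 6.61, so a ratio far below 1 could not have been seen. A link between neighboring genes was not tested. Rgs4 lies 44158 bases beyond Rgs5, with ratios of 1.42 and 1.26. Rgs7, Rgs17 and Rgs6 had ratios of 1.01, 1.26 and 1.91 at means of at most 10.8, and that of Rgs6 had to be above 1, since its male mean of 3.61 lay below the lowest mean of the female table. The other 6 (Rgs11, Rgs13, Rgs18, Rgs20, Rgs21 and Rgs22) had male means from 0, listed for Rgs21, to 4.64, listed for Rgs18, and were not listed in females.

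**Figure D4:**
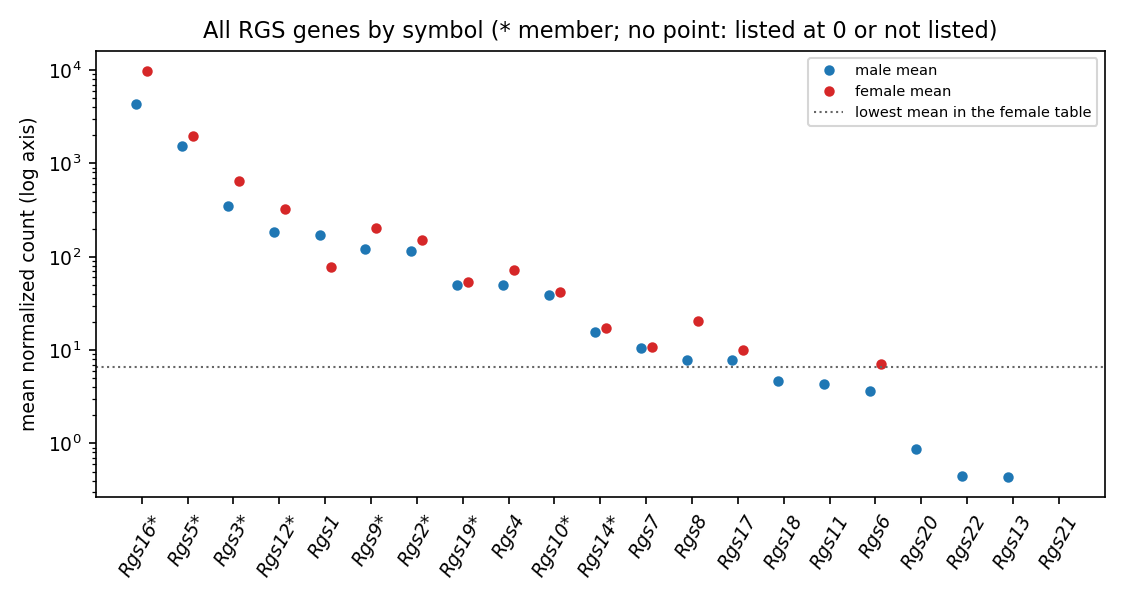
Authors' mean normalized count (log axis, not divided by length) of the 21 RGS genes in males (blue) and females (red), with members starred and the lowest mean of the female table as a dotted line at 6.61. Rgs16 has the highest mean in both sexes, and Rgs1 is the one gene of this plot whose female point lies visibly below its male point.

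The G-protein alpha subunits were also compared between the tables. The list covers all their classes, and not only the Gi and Gq classes named here as partners of members. Of the 15 alpha subunit genes in the list, 14 were in both tables, 4 with a higher share in females and 10 with a lower one. These counts depended on the scaling. The log2 ratios of Gnai2, Gnat1, Gnaq and Gnal were only -0.043, -0.036, -0.014 and -0.011, and that of Gnai3 was 0.014. Other scalings moved the median log2 ratio of all genes from 0.05 to as low as 0.0 and as high as 0.118. Such shifts are enough to change the direction of these genes. In the Gi class, the preferred partner of most members, Gnai3 had a level per length of 29.9 in males and 30.2 in females and Gnai2 of 15.6 and 15.2, while Gnai1 stood at 0.23 and 0.17. In the Gq class, on which Rgs2 acts, Gna11 stood at 11.7 and 9.52 and Gnaq at 5.88 and 5.83. Gnas, the stimulatory subunit, stood at 21.3 and 20.2. Gna12 stood at 31.9 and 20.4, the lowest ratio of the 14 genes, 0.64. Rgs16 thus exceeded every alpha subunit of the list on this scale in both sexes, while Rgs5 lay above Gnaq and below Gnai2 and Gnai3. The place of Rgs16 above Gnas in males depended on the division by length. Gnas has 12003 exonic bases against 2357 in Rgs16. By the mean alone, Gnas was higher than Rgs16 in males (7752 against 4363) and lower in females (7467 against 9766).

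Markers of liver cell types were read beside these values, since a bulk level does not tell fewer cells of a type from less RNA per cell. The hepatocyte markers Alb, Apoa1, Ttr, Tat and Cps1 were the most abundant, with a summed level per length of 17502 in males and 19995 in females. Of the 5, Alb and Cps1 had higher shares in females (log2 ratios 0.41 and 0.11), and Apoa1, Ttr and Tat lower ones (-0.47, -0.13 and -0.69), with a median of -0.13. The 5 smooth muscle and pericyte markers all had higher shares in females, with log2 ratios from 0.25 for Notch3 to 1.25 for Acta2 in 4 of them and a summed level of 3.58 in males and 5.63 in females. The log2 ratio of Rgs5, known as a pericyte gene, was 0.33. The ratio of the remaining marker, Cspg4, had to be above 0, since its male mean of 4.29 lay below the lowest mean of the female table. All 4 stellate markers (log2 ratios 0.32 to 0.48) and all 4 sinusoidal endothelial markers (0.15 to 0.26) were also higher, as were 3 of 4 cholangiocyte markers and 2 of 4 Kupffer cell markers. Of all genes in both tables, 56.3% were higher in females, and the lower and upper quartiles of the log2 ratio were -0.142 and 0.313. The endothelial ratios lay between these quartiles and the stellate ratios above them. The 4 lymphocyte markers were higher by 0.08 to 0.67, unlike Rgs1. The upper end was set by Cd3d, with means of 8.15 in males and 13.2 in females. Its male mean lay close to the lowest mean of the female table, so a log2 ratio far below 0 could not have been seen. Of the neutrophil markers, S100a8 and S100a9 were lower by a log2 ratio of -0.80 and -0.76. Ly6g had a mean of 0.15 in males and was not listed in females. The part of cell composition in the ratios of the RGS genes was not tested.

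The trap itself could not be checked in single libraries. Midn (ENSMUSG00000035621) had authors' means of 1672 in males and 1357 in females, pooled over WT and Midn-T.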

How the data were processed

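Livers of 3 WT and 3 Midn-T mice per sex were sequenced with paired reads of 150 bases after depletion of ribosomal RNA. The authors used STAR (2.7 in the submitters' processing notes) with GRCm39, took reads with 1 mapped place on the strand opposite to read 1 into HTSeq counts for Ensembl 110, divided the counts by DESeq2 size factors within each sex and deposited a signal per gene, the mean over 6 samples. The deposited tables also hold the authors' own fold changes, standard errors, statistics and p-values for WT against Midn-T, and the ATAC-seq files list peaks with the direction of the authors' differential accessibility. These were not used. Library depth is unknown, and the means summed to 3.03e+07 in males and 3.08e+07 in females. For this reason intervals were not given.

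Genes were joined by Ensembl identifier. Each mean was divided by the sum over genes in both tables, which held 99.91% of the male sum, and by exon length from GENCODE M39, of which all 9 members had entries. The ratio calculation was run on counts simulated around the male means with known changes, without variation between animals. That run checks the arithmetic only and not the female-to-male ratios reported. Proteins were aligned with BLOSUM62, and words of 31 bases were counted on both strands of the genome. The genes named are the 9 members, Midn and fixed lists, with Tcea2, Gm28513 and Gm5763 added after the overlaps and copies were seen. Members and lists were chosen with earlier results of these data known. Python 3.11.15, numpy 2.4.6, pandas 2.3.3, numba 0.67.0, biopython 1.88 and matplotlib 3.10.9 were used.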

Additional observations from a re-analysis of the deposited data

How the results depend on the processing

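No paired analysis was possible because the deposited means carry no replicate numbers, and for the same reason no replicate could be left out. All 9 members had the higher share in females under each of the 4 other scalings. This count could not have changed, because each scaling moves the log2 ratio of every gene by the same amount. The largest downward shift, 0.05 with the median ratio set to 1, was smaller than the lowest member ratio, 0.08 for Rgs19. The count is therefore no test of the direction. The log2 female-to-male ratio of Rgs16, 1.14, became 1.19 without the 10 largest genes in the sum, 1.09 with the median ratio of all genes set to 1, 1.16 with the means as deposited and 1.21 with 9 reference genes set equal. That of Rgs9, 0.71, became 0.76, 0.66, 0.74 and 0.78 under the same settings. The ratios of Rgs10 and Rgs19 were as low as 0.03 each with the median ratio set to 1. Of the 9 places in the order by level per length, 7 in males and 6 in females were kept with the longest coding transcript, and 9 and 6 with the mean coding transcript length. Local alignment moved the median protein identity from 46.6% to 51.1% within subfamilies and from 34.5% to 41.4% between them. Without length, Rgs9 stood above 41.89% of genes in males and 47.87% in females. Unknown depth and pooled genotypes limit all of these values, none of which has an error.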
